A study of Homo sapiens with 6 samples.

Results

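Interferon-stimulated antiviral genes were examined in 1 clone of MDA-MB231, an established breast cancer cell line, with a stable knockdown of G9a, against the parental cells. A set of 39 such genes was named, chosen for their place in the interferon response, and a gene counted as measured where the array had a probe set annotated to that gene alone; 37 of the 39 were measured so, among 18417 genes in all, and each of the 37 had 1 such probe set. STAT2 was not analysed here, and GBP1 was covered by a probe set it shares with GBP3 and the pseudogene GBP1P1. There were 3 arrays of the G9a knockdown clone, which the labels describe as less metastatic, and 3 arrays of parental control cells, whose treatment is given as none. Of the means of knockdown and any vector in the control cells nothing is said in the sources used here. With 1 clone, an effect of the knockdown and a property of that clone cannot be told apart. The labels do not tell whether replicates were grown separately, and the p-values below therefore cover the spread among these 6 arrays alone, a spread that may be technical.

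Interferons are secreted proteins that bind cell surface receptors and act through JAK kinases and STAT proteins. Type I and type III interferons activate a factor, with IRF9 as its DNA-binding subunit, that binds the interferon-stimulated response element (ISRE) in the promoters of antiviral genes, and cytosolic RNA sensors such as RIGI and IFIH1 start the chain by inducing interferon. G9a, encoded by EHMT2, places repressive methyl marks on histone H3 and has been studied as a restraint on interferon and interferon-stimulated genes. In bulk RNA, fewer cells expressing a gene and less RNA per cell cannot be told apart.

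Values are log2 intensities, so a difference of 1 is a doubling, and differences are knockdown minus control with the standard error of limma's fit over all 18417 genes (n = 3 arrays per group). A gene was called changed at a Benjamini-Hochberg adjusted p of 0.05. EHMT2 read 9.66, 9.59 and 9.51 in the knockdown and 10.21, 10.27 and 9.93 in control, a difference of -0.55 ± 0.10 (SE; limma, adjusted p = 0.0259), and this call was lost when any array other than control replicate 3 was left out (adjusted p from 0.0716 to 0.122). The array medians lay between 7.79 and 7.86. Control replicate 3 stood apart from the other control arrays for many of the interferon-stimulated genes, as set out after the single genes, so their differences are also given without it.

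The promoters were searched for the ISRE, apart from the expression data. The genes were chosen for their place in the interferon response, so the share with a match is not independent of that choice. RefSeq promoter windows, running from 250 bases before to 50 bases after each start site (GRCh38.p14), were found for 32 of the 39 genes. MX2, IFIT2, OAS2, OASL, IRF7, TRIM22 and IFITM2 had no window and were not searched. The ISRE core was searched on both strands as GAAA, any 2 bases and GAAA again, overlapping matches included, and 22 of the 32 genes (68.8%) held at least 1 match in a window, against 1195 of 27305 genes with windows in the table (4.38%). Windows are shown for DTX3L and PARP9, which had the highest differences in expression, for RIGI, BST2 and IFIH1, which had the lowest, and for SAMD9, whose level depended most on a single array. Letters in capitals mark ISRE core matches, on either strand.
DTX3L, chr3:122564088-122564387, plus strand: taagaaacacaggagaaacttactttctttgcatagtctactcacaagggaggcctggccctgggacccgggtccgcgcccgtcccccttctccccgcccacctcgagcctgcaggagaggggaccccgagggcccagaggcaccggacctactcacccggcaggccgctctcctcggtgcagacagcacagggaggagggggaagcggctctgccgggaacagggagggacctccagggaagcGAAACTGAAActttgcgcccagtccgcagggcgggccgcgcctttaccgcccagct
PARP9, chr3:122564251-122564550, minus strand: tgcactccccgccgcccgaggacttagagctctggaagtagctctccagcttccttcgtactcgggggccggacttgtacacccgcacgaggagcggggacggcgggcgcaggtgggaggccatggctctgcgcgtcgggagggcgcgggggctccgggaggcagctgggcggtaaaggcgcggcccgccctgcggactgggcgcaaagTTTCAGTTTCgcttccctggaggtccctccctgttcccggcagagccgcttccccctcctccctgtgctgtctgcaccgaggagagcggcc
IFIH1, chr2:162318635-162318934, minus strand: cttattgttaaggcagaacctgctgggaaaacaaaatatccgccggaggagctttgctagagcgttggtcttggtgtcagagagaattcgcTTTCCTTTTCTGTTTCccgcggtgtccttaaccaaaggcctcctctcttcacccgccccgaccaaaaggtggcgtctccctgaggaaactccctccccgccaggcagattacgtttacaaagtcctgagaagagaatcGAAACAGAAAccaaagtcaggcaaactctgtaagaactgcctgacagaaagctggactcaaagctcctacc
BST2, chr19:17405581-17405880, minus strand: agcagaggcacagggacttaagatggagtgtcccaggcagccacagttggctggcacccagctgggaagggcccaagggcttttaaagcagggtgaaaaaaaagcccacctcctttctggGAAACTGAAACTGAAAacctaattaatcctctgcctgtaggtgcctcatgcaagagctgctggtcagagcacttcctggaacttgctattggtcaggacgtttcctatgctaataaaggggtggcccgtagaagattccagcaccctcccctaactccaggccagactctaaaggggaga
SAMD9, chr7:93117930-93118229, minus strand: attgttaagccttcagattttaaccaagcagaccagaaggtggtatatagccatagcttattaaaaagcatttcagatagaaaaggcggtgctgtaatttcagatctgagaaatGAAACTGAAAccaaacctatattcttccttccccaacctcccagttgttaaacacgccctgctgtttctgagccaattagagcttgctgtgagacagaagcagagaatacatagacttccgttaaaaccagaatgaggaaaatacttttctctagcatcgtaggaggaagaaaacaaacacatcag
RIGI, chr9:32526147-32526446, minus strand: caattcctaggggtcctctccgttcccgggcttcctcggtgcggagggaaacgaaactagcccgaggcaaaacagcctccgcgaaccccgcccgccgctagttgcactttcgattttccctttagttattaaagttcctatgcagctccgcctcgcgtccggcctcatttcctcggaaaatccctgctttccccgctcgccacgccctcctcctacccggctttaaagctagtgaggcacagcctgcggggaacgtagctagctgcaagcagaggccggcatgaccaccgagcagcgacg
The DTX3L and PARP9 windows face away from each other and overlap, and they hold the same single match, GAAACTGAAA at chr3:122564332-122564341. IFIH1 held 3 matches, BST2 held 2 that overlap, and SAMD9 held 1, while the RIGI window held no match to the searched pattern. The RIGI window does hold gaaacgaaa, where the gap is shorter than the 2 bases searched for. Other gaps were not searched in any window. PARP9 has a second window in the table, which held no match. A match describes the letters and was not tested as a binding site.

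**Figure D1:**
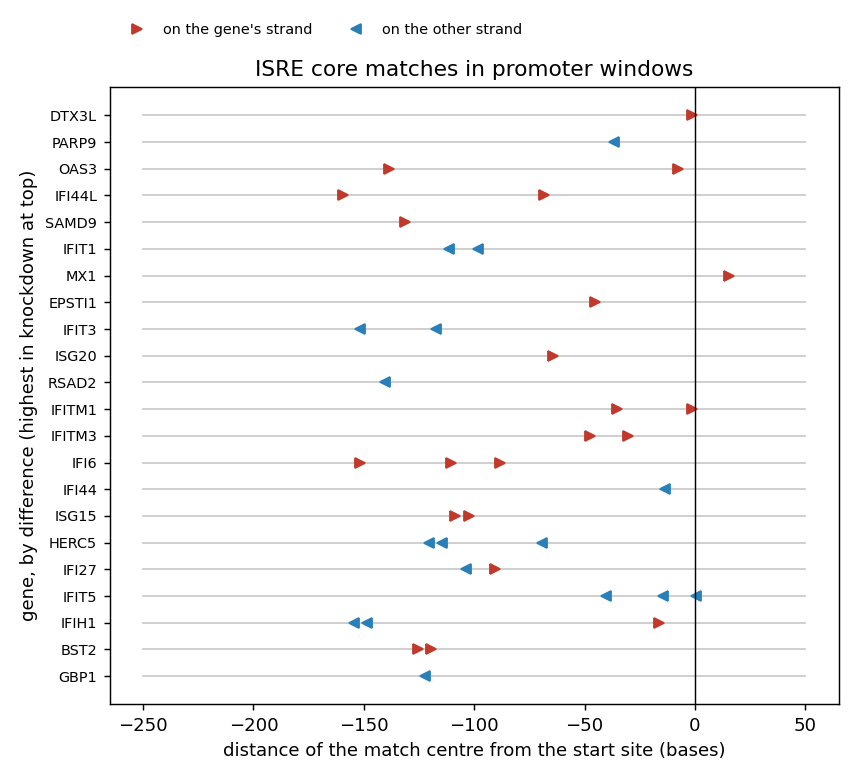
Positions of ISRE core matches in the promoter windows of the 22 genes that had one, as the distance in bases of the match centre from the start site, with arrowheads for the strand. Genes run from the highest difference in knockdown minus control at the top to the lowest, with GBP1, which was not measured singly, last; where a gene has several windows, the one with most matches is drawn. DTX3L, at the top, and BST2, last of the measured genes, both hold a match.

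Genes with a match and genes without one lay on both sides of 0. The 21 measured genes with a match had a median difference of 0.05, with 12 above 0 and a range from -0.28 to 0.57. The 9 measured genes whose windows held none had a median of 0.04, with 5 above 0 and a range from -0.43 to 0.23.

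The antiviral genes did not move as a block in the G9a knockdown clone. MX2 rose, and it was the 1 gene of 37 that passed the test in the upward direction, where 1.28% of all genes were called higher and 3.05% in either direction. None of the 37 passed downward (limma), where 1.78% of all genes were called lower; at an unadjusted p under 0.05, 7 were higher and 3 lower (27.0%, against 19.4% of all genes). The knockdown and control arrays did not overlap for 8 genes that were higher in the knockdown (21.6%, against 14.3% of all genes) and for 6 that were lower (16.2%, against 12.7% of all genes). The median difference over the 37 genes was 0.05, beside 0.03 over all genes, and 23 of 37 were positive (62.2%, against 59.6% of all genes). The shares of called and of positive genes lay near those of all genes.

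**Figure D2:**
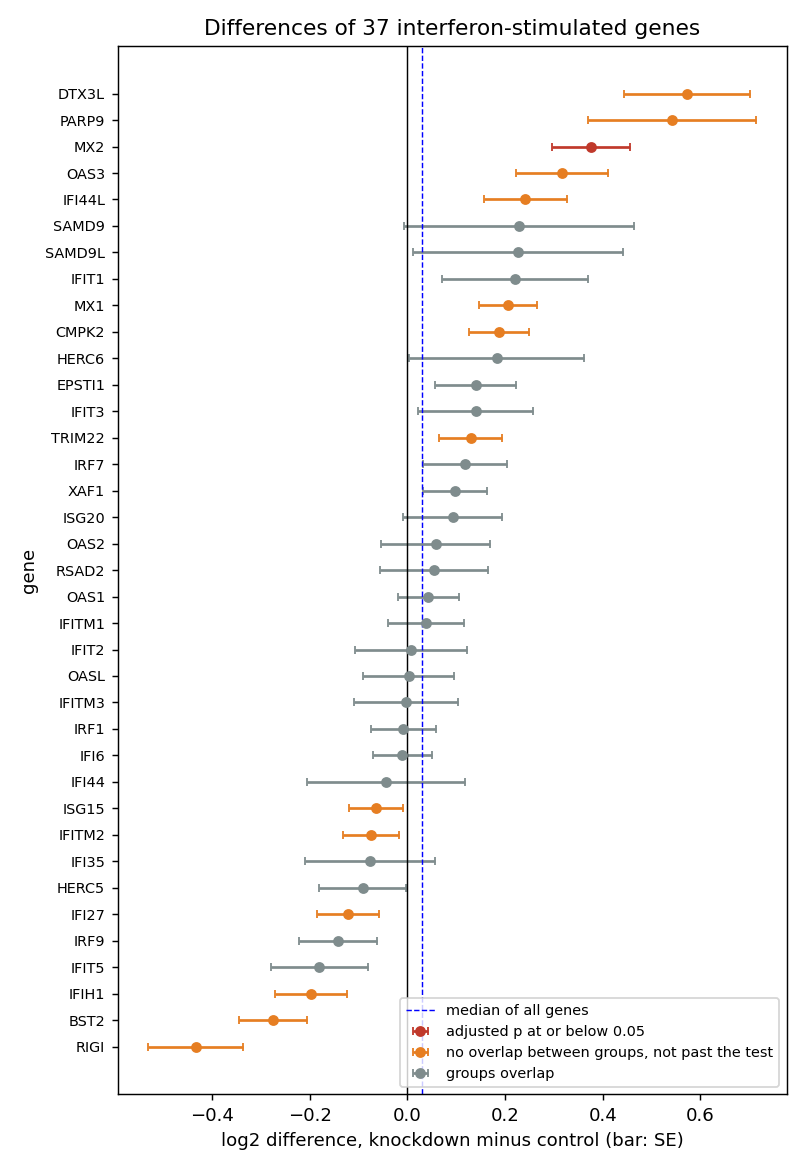
Log2 difference, knockdown minus control, of the 37 measured genes, with bars for the standard error. The red point is MX2, which passed the test, orange points are genes whose groups did not overlap and which did not pass, grey points are genes whose groups overlap, and the dashed line is the median of all genes (0.03); the genes spread on both sides of 0, from -0.43 to 0.57.

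RIGI and IFIH1, the cytosolic RNA sensors named above as inducing interferon, read lower in the knockdown, and neither passed the test. RIGI, the helicase that detects viral RNA ends carrying a triphosphate, read 10.24, 10.30 and 10.25 in the knockdown and 10.66, 10.52 and 10.91 in control. Every knockdown array lay below every control array, and the knockdown arrays lay within a much narrower range than the control arrays. The difference was -0.43 ± 0.10 (SE), which just missed the threshold (limma, adjusted p = 0.0558). Leaving out control replicate 3 gave -0.33 (adjusted p = 0.0556). RIGI passed with genes of low mean level left out (adjusted p = 0.0333), after median centring (0.0354), with an intensity trend (0.0196) and with array weights (0.0195). It did not pass after quantile normalization (0.0671), with every probe set tested (0.149), with the replicate block (0.0950) or with any array left out (0.0556 to 0.183).

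IFIH1, the sensor of long double-stranded RNA, read 6.32, 6.27 and 6.38 in the knockdown and 6.61, 6.55 and 6.40 in control. The groups did not overlap, but knockdown replicate 3 and control replicate 3 lay close together. Its difference of -0.20 ± 0.07 (SE) did not pass (limma, adjusted p = 0.196).

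Of the transcription factors, none passed. IRF9, a subunit of the factor that binds the ISRE, was at -0.14 ± 0.08, with groups that overlapped. IRF7, which drives interferon alpha genes, was at 0.12 ± 0.09, and IRF1, an activator that also serves the interferon gamma response, was at -0.0078 ± 0.07 (all SE). The 95% interval for IRF1 ran from -0.16 to 0.14.

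The MX genes encode dynamin-like GTPases that trap viral nucleoproteins and capsids, and both read higher in the knockdown. MX2 read 8.10, 8.10 and 8.11 in the knockdown and 7.75, 7.86 and 7.57 in control. The knockdown arrays were nearly identical for MX2, and all lay above the control arrays. It rose by 0.38 ± 0.08 (SE), or 1.30-fold (limma, adjusted p = 0.0483). The call did not hold with any array left out: the adjusted p was 0.143, 0.112 and 0.168 with knockdown replicate 1, 2 or 3 left out, and 0.109, 0.0649 and 0.0545 with control replicate 1, 2 or 3 left out. Nor did it pass after quantile normalization (0.0595), after median centring (0.0588), with every probe set tested (0.136) or with the replicate block (0.0876). It passed with genes of low mean level left out (0.0277), with an intensity trend (0.0347) and with array weights (0.0133).

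MX1, the neighbour of MX2 in the genome, read 8.78, 8.74 and 8.73 in the knockdown and 8.53, 8.60 and 8.50 in control. The groups did not overlap, and the spread within each was small. Its difference of 0.21 ± 0.06 (SE) did not pass (limma, adjusted p = 0.106).

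The widest differences belonged to DTX3L and PARP9, neighbouring genes whose products form a complex that joins ubiquitin transfer to ADP-ribosylation. DTX3L read 9.97, 10.14 and 10.28 in the knockdown and 9.76, 9.63 and 9.28 in control. PARP9 read 7.57, 7.95 and 7.81 in the knockdown and 7.47, 7.41 and 6.82 in control. For both genes every knockdown array lay above every control array, with control replicate 3 lowest and knockdown replicate 1 lowest of its group.

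DTX3L was 1.49-fold higher, at 0.57 ± 0.13 (SE), and just missed the threshold (limma, adjusted p = 0.0567), and PARP9 was 1.46-fold higher, at 0.54 ± 0.17 (SE; adjusted p = 0.136). Without control replicate 3 the difference was 0.44 for DTX3L (adjusted p = 0.0722) and 0.34 for PARP9 (adjusted p = 0.153). DTX3L passed after quantile normalization (0.0458), with genes of low mean level left out (0.0358), with an intensity trend (0.0213) and with array weights (0.0035). It did not pass after median centring (0.0566) or with any array left out (0.0566 to 0.194). PARP9 passed with array weights (0.0200). It did not pass after quantile normalization (0.182), after median centring (0.145), with an intensity trend (0.0845) or with any array left out (0.128 to 0.303).

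**Figure D3:**
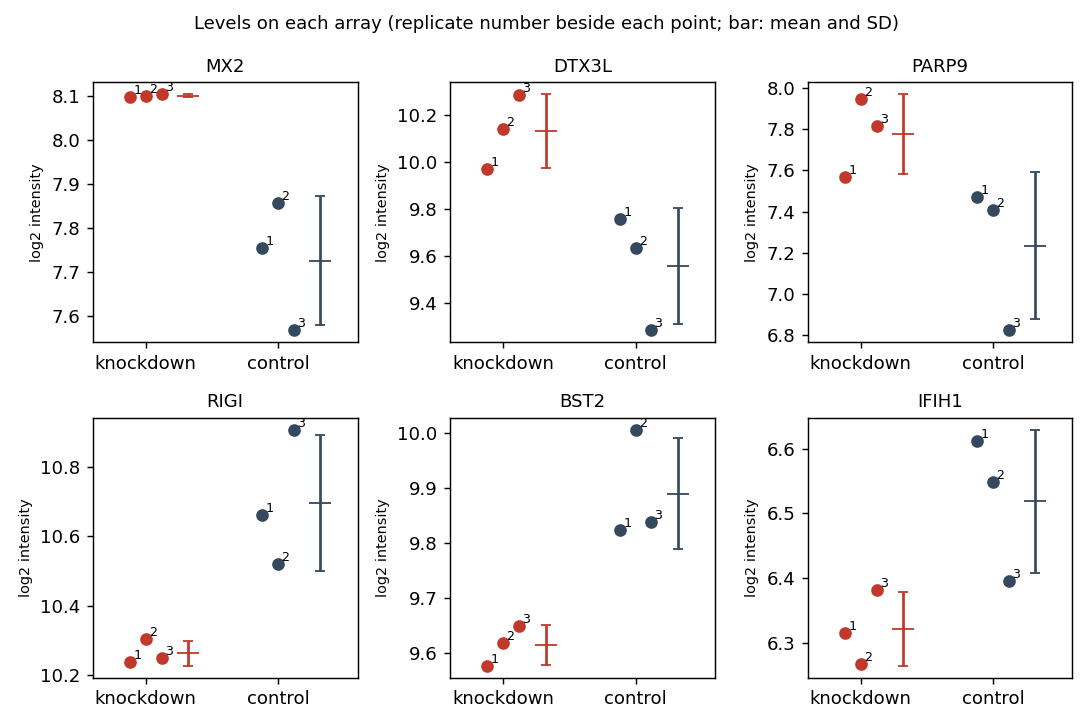
Log2 intensity of MX2, DTX3L, PARP9, RIGI, BST2 and IFIH1 on each of the 3 knockdown arrays (left) and 3 control arrays (right), with the replicate number beside each point and bars for the group mean and SD; each panel has its own vertical axis, which does not start at 0. In the top row all knockdown points lie above all control points, and in the bottom row all lie below.

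The OAS enzymes make short oligoadenylates that activate RNase L. OAS3 read 8.73, 8.80 and 8.79 in the knockdown and 8.50, 8.63 and 8.26 in control, with no overlap and control replicate 3 lowest. Its difference was 0.32 ± 0.09 (SE), without a call (limma, adjusted p = 0.117). OAS3 lies between OAS1 and OAS2 in the genome, and these were at 0.04 ± 0.06 and 0.06 ± 0.11 (SE), with overlapping groups. OASL, a relative without that enzymatic activity, was at 0.0031 ± 0.09 (SE).

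The IFIT proteins bind viral RNA that lacks the host's cap marks. IFIT1 read 8.05, 8.28 and 8.14 in the knockdown and 8.17, 8.08 and 7.56 in control. Its groups overlapped, since the control arrays other than replicate 3 lay among the knockdown arrays. Its difference was 0.22 ± 0.15 (SE; limma, adjusted p = 0.466) with all arrays and 0.03 without control replicate 3. The other genes of this cluster did not share a direction: IFIT3 was at 0.14 ± 0.12, IFIT2 at 0.0071 ± 0.12 and IFIT5 at -0.18 ± 0.10 (all SE). None passed, and all 3 had overlapping groups.

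CMPK2, a mitochondrial nucleotide kinase, and RSAD2 (viperin), which turns CTP into a chain-terminating nucleotide, are neighbours in the genome. CMPK2 read 8.21, 8.22 and 8.26 in the knockdown and 8.02, 8.12 and 7.99 in control, with no overlap between the groups. Its difference was 0.19 ± 0.06 (SE; limma, adjusted p = 0.147). RSAD2 was at 0.05 ± 0.11 (SE), and its groups overlapped.

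ISG15 is a ubiquitin-like protein that is attached to other proteins, in human cells mainly by the ligase HERC5. ISG15 read 8.18, 8.14 and 8.19 in the knockdown and 8.24, 8.24 and 8.22 in control. The groups did not overlap, yet the gap was small, and the difference of -0.06 ± 0.06 (SE) had a 95% interval from -0.19 to 0.06. HERC5 was at -0.09 ± 0.09 and its neighbour HERC6 at 0.18 ± 0.18 (SE), and neither passed. HERC6 was at -0.05 without control replicate 3.

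BST2 read lower in the knockdown without passing the test, and the IFITM genes lay close to 0. BST2 (tetherin), which holds budding virions at the cell surface, read 9.58, 9.62 and 9.65 in the knockdown and 9.82, 10.01 and 9.84 in control. All knockdown arrays lay below all control arrays, and control replicate 3 did not stand out for this gene. The difference was -0.28 ± 0.07 (SE; limma, adjusted p = 0.0754), with -0.30 without control replicate 3. BST2 passed with genes of low mean level left out (0.0410), with an intensity trend (0.0427) and with array weights (0.0080). It did not pass after quantile normalization (0.0708), after median centring (0.0735), with every probe set tested (0.171) or with the replicate block (0.133). Nor did it pass with any array left out (0.0810 to 0.234).

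IFITM1, IFITM2 and IFITM3, which block fusion of viral and cell membranes, were at 0.04 ± 0.08, -0.07 ± 0.06 and -0.0031 ± 0.11 (SE). None of these passed. These paralogs are so alike that cross-hybridization could blur them, and their single values are uncertain for that reason.

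SAMD9 and SAMD9L, neighbouring genes whose products restrict poxviruses and slow translation, showed the strongest dependence on 1 array. SAMD9 read 7.94, 8.18 and 7.9997 in the knockdown and 8.16, 8.11 and 7.17 in control. SAMD9L read 7.68, 7.89 and 7.82 in the knockdown and 7.98, 7.73 and 7.002 in control. In both, control replicate 3 was far below the other 5 arrays, which overlapped. The differences, 0.23 ± 0.24 and 0.23 ± 0.22 (SE; limma, adjusted p = 0.643 and 0.612), were -0.09 and -0.06 without that array.

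Among the remaining interferon-inducible genes, IFI44L had the clearest separation. It read 6.13, 6.41 and 6.41 in the knockdown and 6.11, 6.06 and 6.06 in control, without overlap, although knockdown replicate 1 lay beside the control arrays. The difference was 0.24 ± 0.09 (SE; limma, adjusted p = 0.174), and its neighbour IFI44 was at -0.04 ± 0.16 (SE). TRIM22, a ubiquitin ligase with antiviral activity, was at 0.13 ± 0.06 without overlap, though knockdown replicate 1 (7.064) lay close to control replicate 1 (7.047). IFI27, a mitochondrial protein, was at -0.12 ± 0.06 (SE). Its groups did not overlap, but knockdown replicate 1 (10.5655) and control replicate 1 (10.5667) were nearly equal.

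The last 5 genes had overlapping groups and did not pass. EPSTI1 was at 0.14 ± 0.08, XAF1, an antagonist of the caspase inhibitor XIAP, at 0.10 ± 0.07, and the exonuclease ISG20 at 0.09 ± 0.10. IFI6, a protein of the endoplasmic reticulum, was at -0.01 ± 0.06, and IFI35 at -0.08 ± 0.13 (all SE). The probe set shared by GBP1, GBP3 and GBP1P1 read 11.40, 11.35 and 11.29 in the knockdown and 11.31, 11.26 and 11.02 in control, at 0.15 ± 0.09 (SE), with a limma adjusted p of 0.508 in the fit over every probe set.

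**Figure D4:**
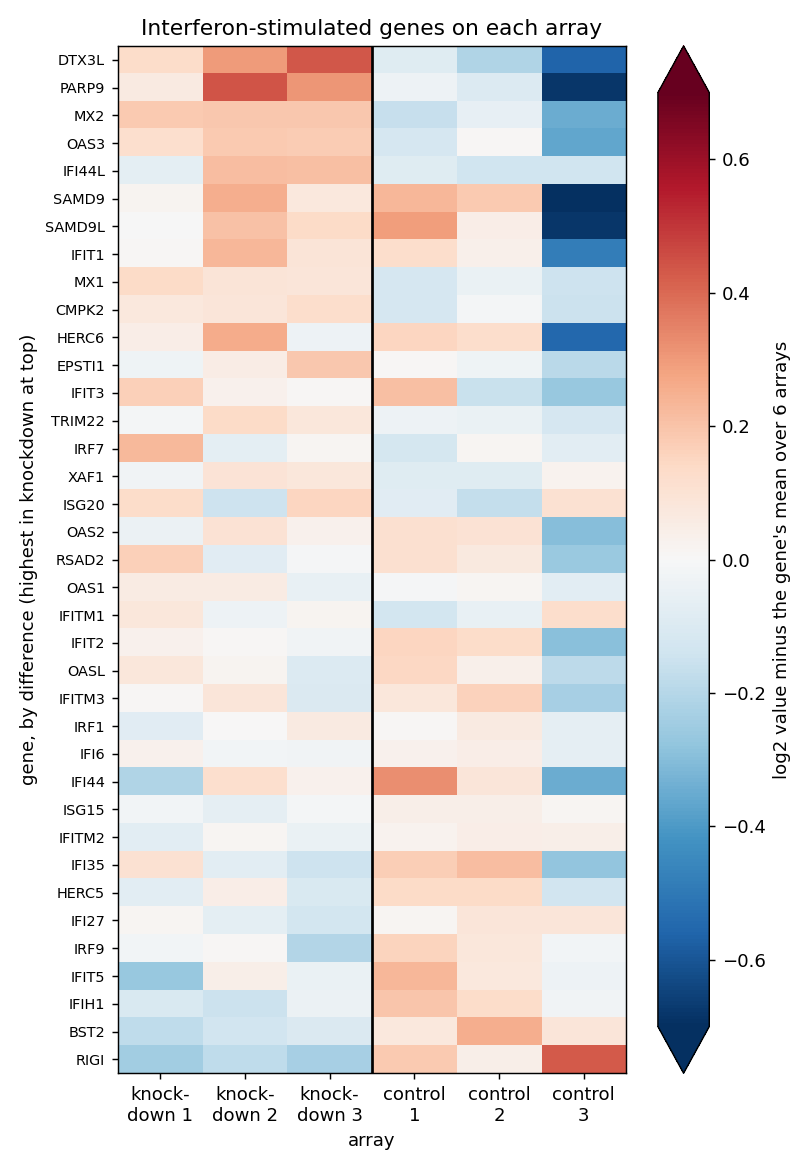
Log2 value of each of the 37 genes on each array minus the gene's mean over the 6 arrays, with the knockdown arrays left and the control arrays right of the line, and colours that saturate at 0.7. The control replicate 3 column is the darkest blue for SAMD9, SAMD9L, PARP9, HERC6 and DTX3L, and RIGI is red there.

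Control replicate 3 read low for much of the set. It was the lowest of the 6 arrays for 23 of 37 genes (62.2%), against 24.8% of all genes. Measured from each gene's mean over the 6 arrays, the median of the 37 genes was 0.01, 0.05 and 0.02 on the knockdown arrays and 0.04, 0.04 and -0.15 on control replicates 1, 2 and 3. The same median over all genes was -0.0035 on control replicate 3.

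In 6 of 37 genes (16.2%), control replicate 3 lay at least 0.5 below the mean of the other control arrays, against 0.809% of all genes. These were SAMD9 (-0.96), SAMD9L (-0.85), HERC6 (-0.69), PARP9 (-0.62), IFIT1 (-0.56) and IFI44 (-0.55). RIGI went the other way, at 0.32 above the mean of the other control arrays, as did ISG20 (0.23) and IFITM1 (0.21). ISG15 (-0.03), IFI27 (0.04) and IFITM2 (0.01) lay close to the other control arrays.

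Without control replicate 3 the balance of the set turned. Of 37 genes, 16 were then positive and 21 negative, against 23 and 14 with all arrays, and the median was -0.05 beside 0.03 over all genes. With 3 knockdown arrays against the other 2 control arrays, 10 genes were higher without overlap (27.0%, against 23.6% of all genes) and 13 lower (35.1%, against 19.6% of all genes). None passed the limma test in that fit. DTX3L, MX2, PARP9, IFI44L and OAS3 kept positive differences of 0.44, 0.30, 0.34, 0.23 and 0.21, and RIGI, BST2 and IFIH1 negative ones of -0.33, -0.30 and -0.26. Smaller positive differences remained for IFIT3 (0.04), EPSTI1 (0.08) and OAS1 (0.016), and larger ones were found for ISG20 (0.17) and IFITM1 (0.11). Values further below 0 than with all arrays were found for HERC5 (-0.18), IFI44 (-0.23), IFI35 (-0.23), IRF1 (-0.04) and IFI6 (-0.04). OAS2 (-0.08), OASL (-0.09), RSAD2 (-0.06), IFIT2 (-0.14) and IFITM3 (-0.12) also lay below 0.

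**Figure D5:**
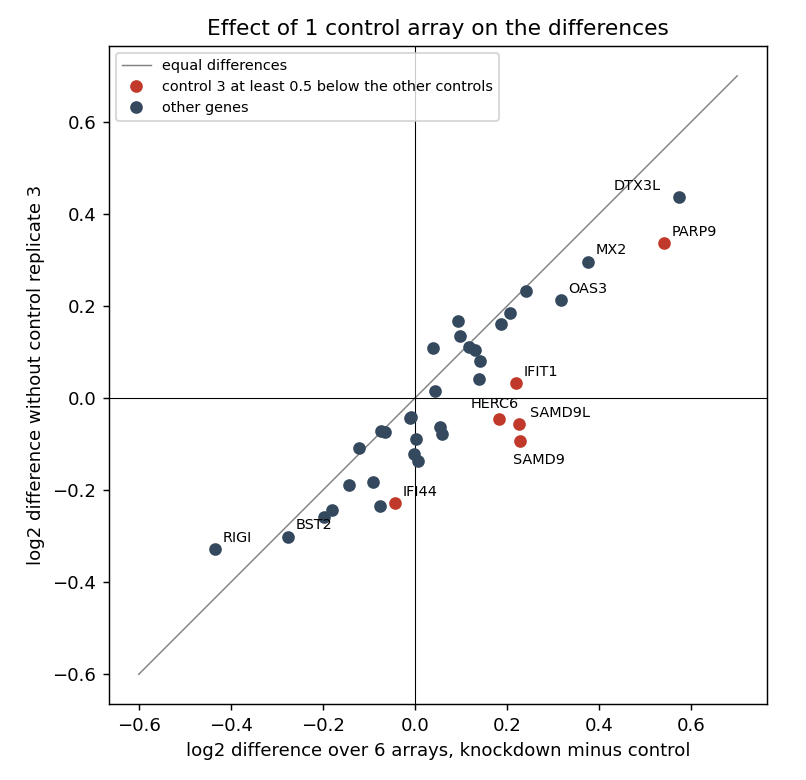
Log2 difference of each of the 37 genes, knockdown minus control, over all 6 arrays (horizontal axis) and without control replicate 3 (vertical axis), with a line for equal values. Red points are the 6 genes for which control replicate 3 lay at least 0.5 below the other control arrays; SAMD9, SAMD9L and HERC6 cross from above 0 to below 0, and DTX3L, PARP9, MX2, RIGI and BST2 keep their sign.

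The wider interferon pathway was read from 6 lists of other genes. Over the 6 lists together, 99 genes were measured, of which 5 were called higher and 3 lower. Of all 18417 genes, 1.28% were called higher, 1.78% lower and 3.05% in either direction. Of 16 singly measured interferon genes of 21 listed, none passed (limma), with a median difference of 0.10. None had an unadjusted p under 0.05, which 19.4% of all genes reached. IFNL1 (0.21 ± 0.13) and IFNW1 (0.19 ± 0.11, SE) had the largest values. All but IFNL3 (means of 8.80 in the knockdown and 8.73 in control) had means below the array medians of 7.79 to 7.86. IFNB1, for example, was at 4.91 and 4.76. Dim probe sets cannot be told from background here, so the lack of a call says little about these genes. Of 10 receptor, JAK and STAT genes of 11 listed, none passed either (0 at an unadjusted p under 0.05, against the same 19.4%), the median was -0.04, and all differences lay between -0.09 and 0.11. IL10RB (0.11 ± 0.06), a subunit of the type III receptor, and JAK1 (-0.09 ± 0.06, SE) had the largest. In the lists described next, the share at an unadjusted p under 0.05 lay above that of all genes. It was 22.2% for sensors and adaptors and 30% for negative regulators. For other interferon-stimulated genes it was 30.6%, and for interferon gamma genes 31.25%.

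Of 18 further sensors and adaptors of 19 listed, 1 passed, where 3.05% of all genes did. MAVS, the mitochondrial adaptor that relays signals from RIGI and IFIH1, read 10.62, 10.57 and 10.52 in the knockdown and 10.29, 10.30 and 10.15 in control. It rose by 0.32 ± 0.07 (SE; limma, adjusted p = 0.0437), with no overlap between the groups. The call was lost after median centring (0.0566), with the replicate block (0.0821) and with every probe set tested (0.122). RIGI and IFIH1 read lower in the same arrays, as given above.

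Of 10 negative regulators, 1 passed and it fell, where 1.78% of all genes were called lower. USP18, the protease that removes ISG15 from proteins and restrains signalling at the type I receptor, read 8.11, 8.05 and 7.98 in the knockdown and 8.65, 8.49 and 8.39 in control. The groups did not overlap, and the difference was -0.46 ± 0.08 (SE; limma, adjusted p = 0.0257). USP18 is itself an interferon-stimulated gene.

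In a list of 38 other interferon-stimulated genes, 36 were measured, 2 rose, 3 fell and 31 did not pass, with a median of 0.035. Among all genes, 1.28% were called higher and 1.78% lower. APOBEC3G, a cytidine deaminase that mutates retroviral DNA, rose by 0.44 ± 0.07 (SE; limma, adjusted p = 0.0160). It read 8.85, 8.68 and 8.72 in the knockdown and 8.35, 8.30 and 8.28 in control. LAMP3, a lysosomal membrane protein, read 7.39, 7.42 and 7.35 in the knockdown and 7.99, 7.92 and 8.14 in control, a difference of -0.63 ± 0.07 (SE; adjusted p = 0.00734). SLFN5, of the Schlafen family, read 10.01, 10.09 and 10.15 in the knockdown and 10.63, 10.61 and 10.90 in control, a difference of -0.63 ± 0.09 (SE; adjusted p = 0.0132). None of these 3 genes had overlapping groups. USP18 is the other that fell, and GBP2, described next, the other that rose.

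Genes of the interferon gamma response included the largest change in the pathway. Of 17 listed, 16 were measured, 3 rose, none fell and 13 did not pass, with a median of 0.06. Among all genes, 1.28% were called higher and 1.78% lower. CXCL10, a chemokine that attracts activated T cells, read 9.34, 9.37 and 9.19 in the knockdown and 8.23, 7.97 and 7.40 in control. Its difference of 1.43 ± 0.18 (SE; limma, adjusted p = 0.0112) was larger than that of any of the 37 antiviral genes, and it was 1.20 without control replicate 3, which lay at -0.70 from the mean of the other control arrays. Its relative CXCL11 rose by 0.56 ± 0.09 (SE; adjusted p = 0.0195). GBP2, a guanylate-binding protein, rose by 0.36 ± 0.06 (SE; adjusted p = 0.0285), but not when all its probe sets were averaged (0.161).

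The number of these 8 pathway calls that held depended on which array was left out. With knockdown replicate 1, 2 or 3 left out, 1, 4 and 0 of the 8 still passed, and with control replicate 1, 2 or 3 left out, 4, 4 and 6. All 8 genes kept their direction in these fits. LAMP3 passed in each of them except that without knockdown replicate 3 (adjusted p = 0.0576), and MAVS (0.0619 to 0.135) and GBP2 (0.0501 to 0.123) in none. USP18 passed without control replicate 3 (0.0233) and in no other of these fits. The highest adjusted p was 0.0588 for CXCL10, 0.0994 for CXCL11, 0.0676 for SLFN5 and 0.0817 for APOBEC3G, the last 3 without knockdown replicate 3.

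Markers of the cell line and of other cell types were read on the same arrays. The MDA-MB231 markers VIM, CD44, CAV1, AXL and MSN lay between 13.25 and 13.70 on every array, and none passed. Of 8 leukocyte and plasmacytoid dendritic cell markers, 6 were measured and none passed, and their summed linear intensity ran from 534 to 571 in the knockdown and from 515 to 570 in control. Of 5 fibroblast and endothelial markers, CDH5 rose by 0.71 ± 0.12 (SE; limma, adjusted p = 0.0210, and up to 0.0869 with 1 array left out). PECAM1 was at 0.42 ± 0.10 without overlap and did not pass (SE; adjusted p = 0.0591, and 0.0176 without control replicate 3). PDGFRB and THY1 were at 0.19 each and DCN at -0.05. The sum of these 5 markers ran from 1009 to 1060 in the knockdown and from 717 to 919 in control. The 5 luminal markers summed to 3948 to 4591 in the knockdown and 4922 to 5687 in control, with none past the test. KRT19 (-0.38 ± 0.10, SE) carried most of that sum, while 3 of the 5 were positive and the list's median difference was 0.056. The part of the last 2 lists in the differences of the antiviral genes was not tested.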

How the data were processed

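The deposited table held 1 log2 value per probe set and array, summarised and scaled by the authors. Which software and method they used is not given in the sources used here, and base 2 was inferred from the range of values (2.13 to 14.8). Without detection calls, dim probe sets cannot be told from background. Precision is limited by the 6 arrays.

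Of 33297 probe sets, 19460 were annotated to 1 gene, 1754 to several and 12083 to none. Symbols were updated by Entrez number against RefSeq (19429 found). The probe set with the highest mean over the 6 arrays stood for each gene. The fit used limma 3.58.1 in R 4.3.3 (lmFit, eBayes, no covariate, 4 residual degrees of freedom). It was two-sided, with Benjamini-Hochberg adjustment over 18417 genes. The 95% intervals come from the same moderated statistics. A run of the fit on simulated arrays gave all 6 the same noise. That run therefore does not cover an outlying array such as control replicate 3.

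Samples were grouped by title. The members and lists were chosen with earlier results of these data known. Every member was named with its difference. Values by array were given for the 12 largest differences besides the called gene, and up to 4 called genes, or the 2 largest differences, were named per pathway list. Per-array values for other genes, the shared GBP1 probe set and the genes beside PARP9 were added after their values were seen. Alternatives were quantile normalization, median centring, a filter on low genes, averaged probe sets, every probe set, an intensity trend, array weights, a replicate block and each array left out.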

Additional observations from a re-analysis of the deposited data

How the results depend on the processing

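The number of antiviral genes past the threshold (1 higher and 0 lower) was 4 (2 higher and 2 lower) with genes of low mean level left out, where 29 of 37 were tested, and likewise 4 (2 and 2) with an intensity trend, settings in which 972 and 1083 of all genes were called. It was 12 (6 and 6) with array weights, 0 (0 higher) with every probe set tested and 0 (0 higher) with the replicate block, and under median centring 0 were higher and 1, RIGI, lower. With 1 array left out it ranged from 0 to 0. Array weights ran from 0.273 for control replicate 3 to 4.83 for control replicate 2. All genes called numbered 562 in the main fit. They numbered 47 with every probe set tested, 217 with the replicate block and 3328 with array weights. With 1 array left out they numbered 44 to 535.

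The members' median (0.05) was -0.034 with array weights and ranged from -0.046 without control replicate 3 to 0.085 without control replicate 1. Genes lower without overlap were 6 with all arrays (16.2%, against 12.7% of all genes) and numbered 6 to 13 with 1 array left out. The 13 were found without control replicate 3 (35.1%, against 19.6% of all genes), an alternative added after seeing the data. The 8 pathway calls became 1 (LAMP3) with every probe set tested, 21 with array weights and 5 with the replicate block, and ranged from 0 to 7 with 1 array left out. The 7 without control replicate 3 are 6 of the 8 and TLR3 (-0.43, adjusted p 0.0233, against -0.093 with all arrays), which was named after its values were seen.

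Of 37 members, 23 kept their sign in every fit. Signs turned for IFIT2 (-0.025 after quantile normalization, -0.013 after median centring, -0.12 with array weights), OASL (-0.019, -0.017 and -0.088 in the same order), IFI6 (0.0028) and IFITM3 (0.017) after quantile normalization, and, with array weights, for OAS1 (-0.017), OAS2 (-0.047), RSAD2 (-0.066), HERC6 (-0.045) and SAMD9 (-0.034). With 1 array left out the ranges across 0 were -0.14 to 0.085 for IFIT2, -0.043 to 0.012 for IFI6, -0.23 to 0.013 for IFI35, -0.23 to 0.11 for IFI44, -0.077 to 0.13 for OAS2, -0.088 to 0.075 for OASL, -0.041 to 0.029 for IRF1, -0.062 to 0.12 for RSAD2, -0.046 to 0.30 for HERC6, -0.093 to 0.40 for SAMD9, -0.057 to 0.43 for SAMD9L, -0.015 to 0.11 for IFITM1 and -0.12 to 0.077 for IFITM3. The causes were not tested.

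The labels do not say whether arrays with the same replicate number belong together. The deviations of same-numbered arrays from their group means correlated at -0.246, 0.122 and 0.0877 across genes. These values cannot decide the question, since differently numbered arrays were not compared. With the replicate block MX2 was at 0.38 with an adjusted p of 0.0876.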

Other observations

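The genes beside PARP9 and DTX3L in the RefSeq order of GRCh38.p14 were looked up after the values of this pair had been seen. Of the 3 tested genes on either side, 5 of 6 were higher in the knockdown without overlap between the groups, where 14.3% of all genes were. KPNA1, an importin gene, rose by 0.30 ± 0.06 (SE; limma, adjusted p = 0.0336), a call that held without control replicate 3 (0.0481) and with no other array left out (up to 0.149). WDR5B was at 0.36 ± 0.10, PARP14 at 0.39 ± 0.09, PARP15 at 0.25 ± 0.09 and HSPBAP1 at 0.07 ± 0.06, and none of these passed (all SE). FAM162A, the sixth, was at 0.05 ± 0.08 (SE), and its groups overlapped. Without control replicate 3, KPNA1 was at 0.30, WDR5B at 0.26 and PARP14 at 0.30.

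Only tested protein-coding genes were placed in this order, so untested genes may lie between those named here. RIPK4, a kinase gene and the next tested gene after MX1, rose by 0.46 ± 0.07 (SE, limma adjusted p = 0.0157). That call held in 3 of 6 fits with 1 array left out (up to 0.0865). FAM3B, the next tested gene on the other side of the MX pair, was at 0.14 ± 0.09 (SE) with overlapping groups. RIGI lay between ACO1 (0.0081 ± 0.05) and TOPORS (0.12 ± 0.08), and BST2 between PLVAP (0.19 ± 0.09) and MVB12A (-0.04 ± 0.06; all SE). None of these 4 genes passed, and all had overlapping groups. IFIH1 lay between FAP (0.05 ± 0.08) and GCA (-0.03 ± 0.13; SE), whose groups overlapped as well.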
